A study of Oryza sativa Japonica Group with 6 samples.

Results

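Expansins are secreted proteins of the plant cell wall that loosen the wall in acid conditions without cutting its polymers, so that turgor can stretch the growing cell. The beta-expansins form a branch of the family that is large in grasses, whose walls are rich in glucuronoarabinoxylan. In rice, vegetative members are known from elongating organs such as coleoptiles, internodes and roots. The 6 genes described here are OsEXPB6 (LOC_Os10g40700), OsEXPB2 (LOC_Os10g40710), OsEXPB3 (LOC_Os10g40720) and OsEXPB4 (LOC_Os10g40730), which are consecutive loci of a cluster on chromosome 10, OsEXPB11 (LOC_Os02g44108) on chromosome 2 and OsEXPB7 (LOC_Os03g01270) on chromosome 3. They were chosen by locus identifier from the 55986 loci of the deposited files. The rule uses no measured value, but it was set with earlier results of these data known. All 6 were found and passed the filter on low values.

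RNA-seq was made from young seedlings whose buds had reached about 5 mm, in 2 genotypes that had both been held at 2 °C for 3 h. In the overexpression plants (OEZ) the lipid transfer protein gene OsLTPL159, in its IL112 allele, was driven by the 35S promoter of cauliflower mosaic virus in the japonica variety Zhonghua17, and the control plants (ZH17) were the nontransformed variety. Each genotype had 3 biological replicates of 50 pooled plants, and how many independent transformants the OEZ pools held is not given in the sources used here. No unchilled library was analysed here, so these values describe chilled seedlings and not a response to cold. The unit is FPKM, a count of fragments divided by exon length and by the mapped total, which can be compared between genes because it is per length. OsLTPL159 itself had 2506, 2539.9 and 2502 FPKM in OEZ replicates 1, 2 and 3, against 141, 138 and 131 FPKM in ZH17 replicates 1, 2 and 3, as the labels of the libraries require.

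The depth of the libraries is not recorded in FPKM values. Relative depth, taken from the steps between values of barely detected loci, was 1.02 to 1.32 in OEZ and 1.0 to 1.16 in ZH17, set against ZH17 replicate 1. Markers of other tissues differed between the pools. The summed FPKM of 8 grain storage protein loci, of which 1 was listed at 0 throughout, was 2.26, 84.1 and 1.94 in OEZ replicates 1, 2 and 3, against 3.84, 30.3 and 26.7 in ZH17 replicates 1, 2 and 3. For 8 alpha-amylase loci of the germinating grain the sum was 234 in OEZ replicate 2 but at most 2.05 in OEZ replicates 1 and 3, against 82.4, 220 and 156 in ZH17 replicates 1, 2 and 3. Over 7 loci of green shoots the values summed to 4919 to 6030 FPKM in OEZ, below the 8496 to 9138 FPKM in ZH17. Of these 7 loci, 4 were lower in OEZ by at least 1.5-fold with a limma adjusted p under 0.05, beside 1.42% of all tested loci. The 6 root loci summed to 2186 to 2435 FPKM in OEZ and 1904 to 2363 FPKM in ZH17. The root sum joins loci that differed in opposite directions, with log2 fold changes of -0.42 at LOC_Os02g44320 (limma adjusted p = 0.014), 0.40 at LOC_Os03g01700 (0.039) and 0.45 at LOC_Os02g44310 (0.163), none of them past both thresholds. The part of these differences in the expansin values was not tested, and in such pools fewer cells of a type cannot be told apart from less RNA per cell.

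All 6 beta-expansin genes were strongly expressed in every library. OsEXPB3 was the highest of the 6 in 6 of 6 libraries and ranked between 424th and 604th among all loci of a library. OsEXPB7, the lowest of the 6 in each library, still ranked between 2032nd and 3988th. None of the 6 passed a fold change of at least 1.5 with an adjusted p under 0.05 between OEZ and ZH17 (limma, Benjamini-Hochberg adjustment over 22841 loci), and none had an unadjusted p under 0.05. Across all tested loci 681 passed both thresholds, which is 2.98%, and 23.2% had an unadjusted p under 0.05. With a block for replicate number 321 loci passed both thresholds, and without single libraries the number lay between 327 (without OEZ replicate 3) and 967 (without ZH17 replicate 3). The OEZ and ZH17 libraries were fully apart in none of the 6 genes and at 29.2% of all tested loci. With only 6 genes, a count of none cannot be told apart from that share.

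In the chromosome 10 cluster, OsEXPB3, known from growing internodes of deepwater rice, had 214, 291 and 274 FPKM in OEZ replicates 1, 2 and 3, against 282, 279.8 and 254 FPKM in ZH17 replicates 1, 2 and 3. OEZ replicate 1 was the lowest library, and the others lay close together. The means were 260.0 ± 40.5 FPKM in OEZ and 272 ± 15.4 FPKM in ZH17 (SD, n = 3 pools). On the log2 scale OEZ over ZH17 came to -0.08 ± 0.12 (standard error, limma adjusted p = 0.740), and its 95% interval ran from -0.35 to 0.20.

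OsEXPB6, which is also known from elongating internodes, had 163, 183 and 173 FPKM in OEZ replicates 1, 2 and 3, against 214, 207 and 162 FPKM in ZH17 replicates 1, 2 and 3. ZH17 replicates 1 and 2 lay above all OEZ libraries, and ZH17 replicate 3 lay just below them. The means were 173 ± 10.3 FPKM in OEZ and 194 ± 27.9 FPKM in ZH17 (SD, n = 3 pools). On the log2 scale OEZ over ZH17 came to -0.16 ± 0.11 (standard error, limma adjusted p = 0.431), and the 95% interval ran from -0.42 to 0.10. Without ZH17 replicate 3 it was -0.28 with an adjusted p of 0.050, which lies just under the threshold before rounding, but it was short of a fold change of 1.5.

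OsEXPB4, the gene whose levels were most even, had 180, 169 and 165 FPKM in OEZ replicates 1, 2 and 3, against 167, 196 and 171 FPKM in ZH17 replicates 1, 2 and 3. The libraries of both genotypes were interleaved, and the means were 172 ± 8.03 FPKM in OEZ and 178 ± 15.5 FPKM in ZH17 (SD, n = 3 pools). On the log2 scale OEZ over ZH17 came to -0.05 ± 0.07 (standard error, limma adjusted p = 0.726), and the 95% interval of -0.23 to 0.13 was the narrowest of the 6.

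OsEXPB2, known for a role in the growth of the rice root system, had 91.3, 97.1 and 104.9 FPKM in OEZ replicates 1, 2 and 3, against 106.7, 94.3 and 82.6 FPKM in ZH17 replicates 1, 2 and 3. The OEZ values all lay inside the range of the ZH17 values, with means of 97.8 ± 6.85 FPKM in OEZ and 94.6 ± 12.1 FPKM in ZH17 (SD, n = 3 pools). On the log2 scale OEZ over ZH17 came to 0.05 ± 0.10 (standard error, limma adjusted p = 0.794), and the 95% interval ran from -0.19 to 0.29.

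Outside the cluster, OsEXPB11, another gene of growing internodes, had 69.5, 84.5 and 80.9 FPKM in OEZ replicates 1, 2 and 3, against 71.2, 70.0 and 56.8 FPKM in ZH17 replicates 1, 2 and 3. OEZ replicates 2 and 3 were above every ZH17 library, but OEZ replicate 1 was below ZH17 replicates 1 and 2. The means were 78.3 ± 7.84 FPKM in OEZ and 66.0 ± 7.95 FPKM in ZH17 (SD, n = 3 pools). The log2 fold change of 0.25 had a standard error of 0.11 and was the largest in size among the 6 genes, yet it did not pass (limma adjusted p = 0.233, 95% interval -0.01 to 0.51). It stayed between 0.15 and 0.33 when each library was left out in turn.

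OsEXPB7 had 42.5, 48.1 and 49.1 FPKM in OEZ replicates 1, 2 and 3, against 69.7, 53.4 and 36.5 FPKM in ZH17 replicates 1, 2 and 3. The ZH17 libraries enclosed the OEZ libraries on both sides, with a 1.91-fold range in ZH17 and a 1.16-fold range in OEZ. The means were 46.6 ± 3.56 FPKM in OEZ and 53.2 ± 16.6 FPKM in ZH17 (SD, n = 3 pools). On the log2 scale OEZ over ZH17 came to -0.15 ± 0.21 (standard error, limma adjusted p = 0.726), and its 95% interval of -0.65 to 0.36 was the widest of the 6.

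**Figure D1:**
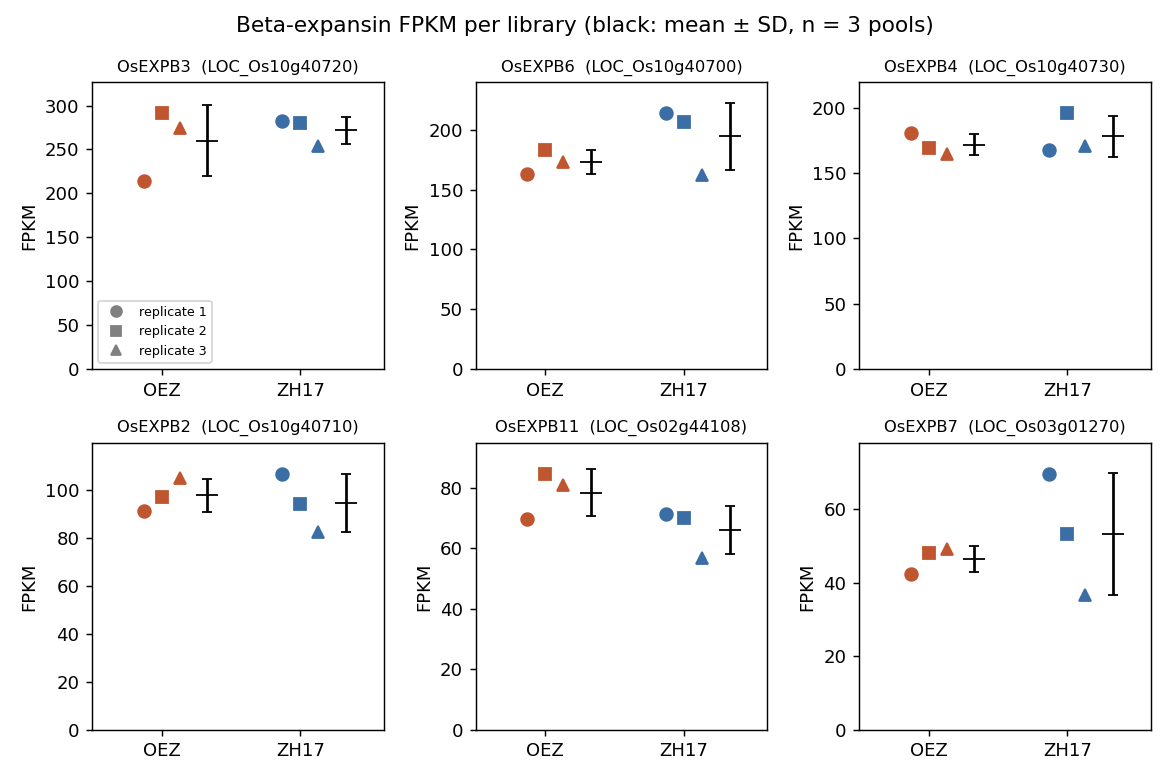
FPKM of the 6 beta-expansin genes in each library, with OEZ at the left and ZH17 at the right of each panel, replicates 1 to 3 as circle, square and triangle, and the mean ± SD of 3 pools in black. The genotypes overlap in every panel, and the ZH17 libraries of OsEXPB7 spread from 36.5 to 69.7 FPKM.

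The limma intervals of the fold change are a guide to the resolution of these libraries. They rest on a variance drawn toward that of other loci of like level. Each of the 6 genes spread more between replicates than the median of such loci, so the intervals may be too narrow for these genes. In OsEXPB3, OsEXPB6, OsEXPB4, OsEXPB2 and OsEXPB11 the 95% interval lay within 1.5-fold in either direction, with lower ends of 0.748 to 0.992 and upper ends of 1.07 to 1.42. For OsEXPB7 it ran from 0.638 to 1.28, and so reached past a 1.5-fold fall. Exact two-sided permutation tests of single genes gave p of 0.3 to 0.8, where 3 pools against 3 cannot give less than 0.1. The median size of the log2 fold change was 0.11 over the 6 genes and 0.13 over the 2400 loci whose mean was between 49.9 and 266 FPKM, the range of the 6 genes. Of those 2400 loci 68 passed both thresholds, which is 2.83%.

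The replicates of these genes differed more from each other than those of most loci of like level. The residual SD of log2(FPKM + 0.1) was 0.18 in OsEXPB3, 0.16 in OsEXPB6, 0.10 in OsEXPB4, 0.15 in OsEXPB2, 0.17 in OsEXPB11 and 0.34 in OsEXPB7. The median of the 2400 loci was 0.084, with an interquartile range of 0.057 to 0.13. OsEXPB4 stood at the 61.9th percentile of these loci, OsEXPB7 at the 96.8th percentile and the other 4 genes between the 80.7th and the 85.9th percentile. Within ZH17, replicate 3 was the lowest library for 5 of the 6 genes, and it was the lowest of ZH17 at 34.6% of the 2400 loci. OsEXPB4 was the exception, with its lowest ZH17 value in replicate 1.

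By level, the 6 genes kept nearly the same order in every library. OsEXPB3 came first in 6 of 6 libraries, and OsEXPB2, OsEXPB11 and OsEXPB7 followed in this order at the lower end in all 6. OsEXPB6 and OsEXPB4 exchanged the second and the third place, with OsEXPB6 higher in 4 of 6 libraries and a ratio of means of 1.05, and their values overlapped in both genotypes. Between OsEXPB3 and OsEXPB6 the ratio of means was 1.45, and the lowest library of OsEXPB3 was above the highest library of OsEXPB6. OsEXPB4 was 1.82 times OsEXPB2, with no overlap. OsEXPB2 and OsEXPB11 did not overlap within a genotype, at a ratio of means of 1.33. OsEXPB11 and OsEXPB7 differed by a ratio of means of 1.45 and were apart in OEZ, but overlapped in ZH17, where OsEXPB11 had 71.2 and OsEXPB7 69.7 FPKM in replicate 1.

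Summed over the 6 genes, the level was 761, 874 and 847 FPKM in OEZ replicates 1, 2 and 3, against 911, 900.0 and 764 FPKM in ZH17 replicates 1, 2 and 3. These values overlap, and the means of 827 ± 59.0 FPKM in OEZ and 858 ± 82.1 FPKM in ZH17 differ by less than their spread (SD, n = 3 pools). The chromosome 10 cluster supplied 84.6% to 85.3% of the sum in OEZ and 84.5% to 87.8% in ZH17. OsEXPB3 alone made up 28.2% to 33.3% of it in OEZ and 30.9% to 33.3% in ZH17.

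In 1 of the 6 genes, OsEXPB11, the share of this sum did not overlap between the genotypes. Of all other tested loci, 17.8% did not overlap when divided by the same sum, and 1 of 6 is close to that background. The share of OsEXPB11 was 9.14%, 9.67% and 9.56% in OEZ replicates 1, 2 and 3, against 7.81%, 7.78% and 7.44% in ZH17 replicates 1, 2 and 3. The difference of the means was 1.78 percentage points. The shares of the other 5 genes overlapped, and OsEXPB6 had 20.9% ± 0.504 in OEZ and 22.6% ± 1.16 in ZH17 (SD, n = 3 pools).

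**Figure D2:**
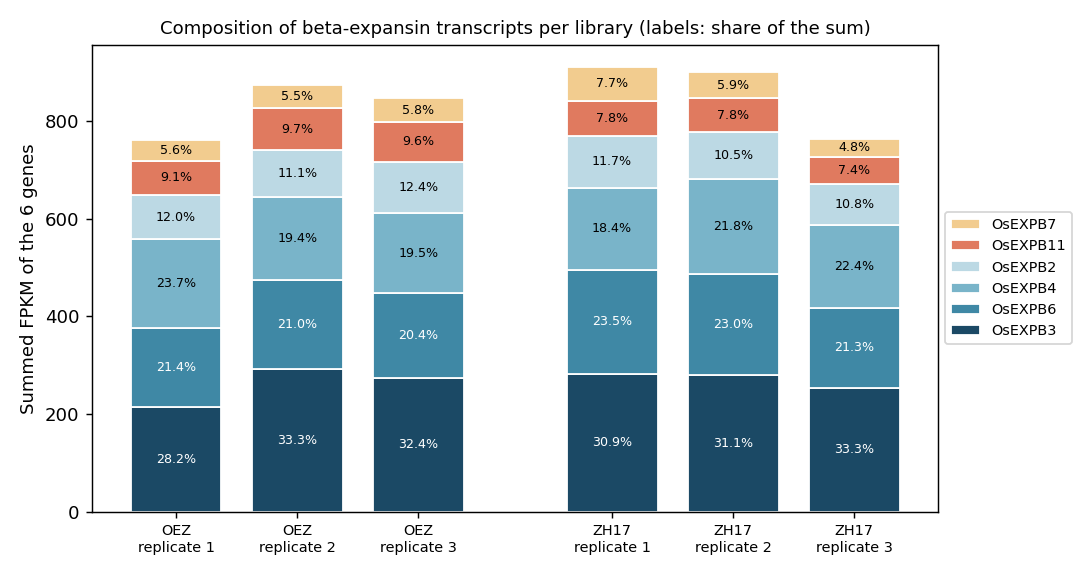
Summed FPKM of the 6 beta-expansin genes in each library, OEZ at the left and ZH17 at the right, with each gene as a stacked segment labelled with its share of the sum in percent. OsEXPB11 takes 9.14% to 9.67% in the OEZ libraries and 7.44% to 7.81% in the ZH17 libraries, while the total lies between 761 and 911 FPKM in all 6.

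A ratio of 2 genes within a library does not depend on the scaling between libraries. All 15 pairs of the 6 genes were therefore compared, a comparison that was chosen after the values had been seen. In 5 of the 15 pairs, which is 33.3%, the log2 ratios of OEZ and ZH17 did not overlap, and among the ratios of these genes to all other tested loci 17.8% did not overlap. The 15 ratios share genes and are not independent. OsEXPB11 was the numerator in 4 of the 5 pairs. Its log2 ratio to OsEXPB6 was -1.23, -1.12 and -1.09 in OEZ replicates 1, 2 and 3, against -1.59, -1.56 and -1.51 in ZH17 replicates 1, 2 and 3. The difference of the means was 0.41, the largest of the 15 pairs. The SD between replicates was 0.071 in OEZ and 0.037 in ZH17. The difference stayed between 0.38 and 0.45 when each library was left out in turn. The largest of 15 differences is picked from these same libraries, so neither comparison is independent support for it. The ratio of OsEXPB11 to OsEXPB3 differed by 0.32, that to OsEXPB2 by 0.20 and that to OsEXPB7 by 0.39 on the log2 scale. The ratio to OsEXPB4 overlapped, with a difference of 0.30. The remaining pair without overlap was OsEXPB2 over OsEXPB6, with a difference of 0.21. Each of the 5 had an exact two-sided permutation p of 0.1, the smallest possible, and an adjusted p of 0.3 over the 15 pairs, so none passed.

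**Figure D3:**
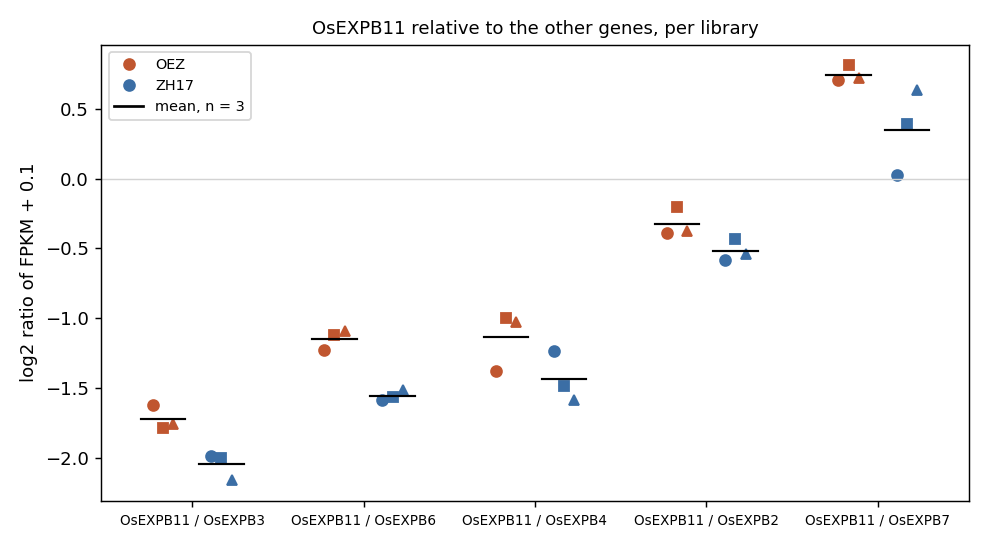
Log2 ratio of OsEXPB11 to each of the other 5 genes per library, computed on FPKM + 0.1, with OEZ at the left and ZH17 at the right of each pair, replicates 1 to 3 as circle, square and triangle, and the mean as a black line. OEZ lies above ZH17 without overlap in 4 of the 5 ratios, and in the ratio to OsEXPB4 the genotypes overlap.

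The neighbours of the cluster on chromosome 10 were followed to see whether its loci stood apart. Of the 5 tested loci on either side, none passed the thresholds, and their log2 fold changes ranged from -0.53 at LOC_Os10g40640 to 0.37 at LOC_Os10g40824. The fold changes of the 4 cluster genes, from -0.16 to 0.05, lay inside that range. The loci at its ends averaged 7.41 and 1.76 FPKM, against 96.2 to 266 FPKM for the cluster genes. A range set by such low loci cannot show whether the cluster stood apart.

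Besides these genes, 13 further loci were placed in the beta-expansin family from general knowledge of the family, since the files carry no gene descriptions. This list, like that of the alpha-expansins below, was made with earlier results of these data known. Of them 5 were listed at 0 in all 6 libraries and 1 more, LOC_Os02g44106, reached at most 0.192 FPKM. The other 7 were tested and none passed (limma, both thresholds), 3 of them having an unadjusted p under 0.05, as did 23.2% of all tested loci. The 6 genes supplied 87.7% to 90.6% of the summed FPKM of all 19 beta-expansin loci in OEZ and 90.0% to 91.9% in ZH17.

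Among the 7 tested loci, 6 had a positive log2 fold change, and the median of the 7 was 0.27, beside -0.06 over the 6 genes above and 0.02 over all tested loci. In 3 of the 7 every OEZ library was above every ZH17 library, as at 16% of all tested loci. LOC_Os03g01260, the locus next to OsEXPB7, had 43.1, 36.6 and 41.9 FPKM in OEZ replicates 1, 2 and 3, against 32.9, 35.7 and 29.4 FPKM in ZH17 replicates 1, 2 and 3 (log2 fold change 0.31, limma adjusted p = 0.111). LOC_Os04g46650, which the study's table of differing genes, drawn from these same libraries, describes as an expansin precursor, had 7.62, 6.25 and 8.93 FPKM in OEZ replicates 1, 2 and 3, against 4.84, 5.10 and 5.06 FPKM in ZH17 replicates 1, 2 and 3. Its log2 fold change was 0.58 with a limma adjusted p of 0.056, and among the alternatives run it passed both thresholds only when OEZ replicate 2 was left out (0.71, adjusted p = 0.041).

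The libraries were also apart at LOC_Os04g44780, with 8.04, 9.54 and 9.37 FPKM in OEZ replicates 1, 2 and 3, against 6.58, 5.57 and 7.03 FPKM in ZH17 replicates 1, 2 and 3 (log2 fold change 0.49, limma adjusted p = 0.060). The remaining loci of the family that averaged at least 5 FPKM overlapped between genotypes. These were LOC_Os02g42650 (log2 fold change 0.08), LOC_Os04g46630 (0.27) and LOC_Os03g44290 (-0.01), with limma adjusted p of 0.591, 0.216 and 0.983.

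For comparison, 11 loci of the alpha-expansins, the other large branch of the family, were listed in the same way. Of the 11 loci 2 passed as higher in OEZ and none as lower, beside 1.56% and 1.42% of all tested loci, and the median log2 fold change of the 11 was 0.24. LOC_Os03g21820, described as an expansin precursor in the same table, had 6.68, 6.66 and 5.62 FPKM in OEZ replicates 1, 2 and 3, against 3.29, 3.14 and 2.58 FPKM in ZH17 replicates 1, 2 and 3. On the log2 scale it was higher in OEZ by 1.05 ± 0.13 (standard error, limma adjusted p = 0.0081), and it passed both thresholds also when each library was left out in turn. LOC_Os02g51040 had 23.2, 22.0 and 22.9 FPKM in OEZ replicates 1, 2 and 3, against 16.7, 15.2 and 13.3 FPKM in ZH17 replicates 1, 2 and 3 (log2 fold change 0.60, limma adjusted p = 0.016), which is just above 1.5-fold. When each library was left out in turn it passed only without ZH17 replicate 1, with log2 fold changes of 0.51 to 0.67 and limma adjusted p of 0.013 to 0.074 over the 6 fits. The alpha-expansin loci with the highest levels, LOC_Os01g60770 and LOC_Os05g39990, had log2 fold changes of -0.09 and -0.11 with limma adjusted p of 0.649 and 0.608. No test of a difference between the alpha- and the beta-expansins was run. The summed FPKM of the 19 beta-expansin loci was 1.78 to 1.99 times that of the 11 alpha-expansin loci in OEZ and 1.91 to 1.98 times in ZH17. Whether the 11 loci cover the whole alpha-expansin branch was not checked. The ratio therefore compares these lists and not the branches as a whole.

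**Figure D4:**
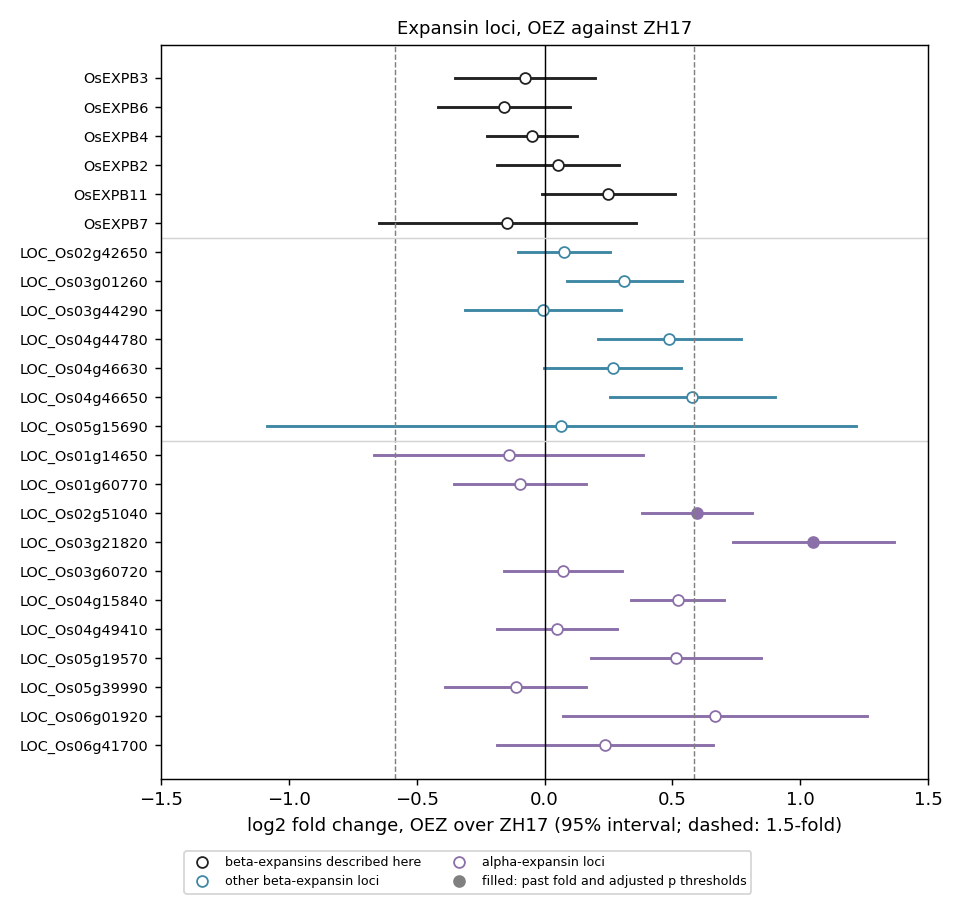
Log2 fold change of OEZ over ZH17 with its 95% interval from limma for the 6 beta-expansin genes (black), 7 other tested beta-expansin loci (blue) and 11 alpha-expansin loci (purple), with dashed lines at 1.5-fold. Filled points passed both thresholds. They are LOC_Os02g51040 and LOC_Os03g21820, and all 6 genes in black are open points.

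The pattern of each gene over the 6 libraries was compared with that of 14699 other loci that averaged at least 5 FPKM, by the root mean square difference of log2(FPKM + 0.1) after centring each locus on its own mean. The closest loci were LOC_Os12g01680 and LOC_Os07g38000 for OsEXPB3 (differences of 0.023 and 0.041), LOC_Os09g11480 and LOC_Os03g57210 for OsEXPB6 (0.030 and 0.031), and LOC_Os01g64760 and LOC_Os03g04450 for OsEXPB4 (0.015 and 0.016). For OsEXPB2 they were LOC_Os06g49220 and LOC_Os03g46090 (0.023 and 0.028), for OsEXPB11 LOC_Os04g56710 and LOC_Os02g02470 (0.021 and 0.036), and for OsEXPB7 LOC_Os03g40670 and LOC_Os01g55240 (0.044 and 0.065).

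LOC_Os12g01680, the locus closest to OsEXPB3, had 8.71, 11.3 and 10.98 FPKM in OEZ replicates 1, 2 and 3, against 11.2, 10.98 and 10.1 FPKM in ZH17 replicates 1, 2 and 3. Its lowest value was in OEZ replicate 1, as in OsEXPB3. LOC_Os03g40670, the locus closest to OsEXPB7, had 19.5, 23.5 and 23.7 FPKM in OEZ replicates 1, 2 and 3, against 32.9, 24.6 and 18.2 FPKM in ZH17 replicates 1, 2 and 3, with a wide range in ZH17 too. Both loci were picked from 14699 for their likeness over these same libraries, so the matches follow from the choice. Among the 6 genes themselves only 5 partners were available to each, so these differences cannot be set against the closest of 14699 loci. The nearest of the 6 to OsEXPB3 was OsEXPB6, at a difference of 0.126, and the nearest to OsEXPB2 was OsEXPB11, at 0.124. In turn OsEXPB3 was the nearest to OsEXPB6. OsEXPB6 was also the nearest to OsEXPB4, and to OsEXPB7, which lies outside the cluster. Most partners open to a cluster gene are themselves in the cluster, so these partners do not show that the cluster varied together.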

How the data were processed

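Total RNA of early seedlings was sequenced as paired-end libraries. The authors mapped the reads to the Nipponbare genome (IRGSP-1.0, MSU annotation) with TopHat2 at default parameters, and computed the deposited FPKM of each locus with Cuffdiff, 1 file per library, with 25361 of 55986 loci at 0 in all 6. Tool versions and the scaling between libraries are not given in the sources used here. Reads shared by similar genes of the cluster may have been divided between them, and the similarity of the genes was not analysed here.

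Log2(FPKM + 0.1) of 22841 loci averaging at least 0.5 FPKM was compared between OEZ and ZH17 in limma 3.58.1 (R 4.3.3) with a variance trend, and p values were adjusted by Benjamini-Hochberg. A fold change on this scale understates changes of low genes. The thresholds, 1.5-fold and an adjusted p under 0.05, are those of the study's methods, whose Cuffdiff test needs reads. With that test the study reported more differing genes than passed here, most of them lower in OEZ. The fit was tested on simulated data with changes set at the levels of the 6 genes. Of 100 loci changed 1.5-fold 63 passed the adjusted p, and of 100 changed 2-fold 84 passed it. A true change of 1.5-fold can therefore be missed. The simulated loci were matched to the 6 genes by level and not by spread. The median residual SD of the 2400 loci of these levels was 0.084, against 0.10 to 0.34 in the 6 genes. The simulated counts therefore probably overstate what would be found for these genes. They also left out the fold threshold. Other values used Python 3.11.15. Members and lists were chosen with earlier results of these data known. Named loci were the 6 genes, beta-expansin loci averaging at least 5 FPKM or past the thresholds, alpha-expansin loci past them, OsLTPL159, the 2 loci most like each gene and the loci beside the cluster, given by range. The 3 root loci, LOC_Os01g60770, LOC_Os05g39990, LOC_Os04g15840, LOC_Os02g44106 and the ends of the range beside the cluster were named after their values were seen.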

Additional observations from a re-analysis of the deposited data

How the results depend on the processing

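None of the 6 genes passed both thresholds under any of the 16 alternatives, which were pseudocounts of 1 and 0.01, no filter and a filter at a mean of 5 FPKM, median-ratio scaling, quantile normalization, no variance trend, the replicate block, no criterion on fold change, the ratio of mean FPKM and leaving out each library. The lowest adjusted p was 0.050, for OsEXPB6 without ZH17 replicate 3. Of 96 fold changes 4 reversed in sign, all near 0 and with 1 library left out: OsEXPB3 to 0.057 without OEZ replicate 1, OsEXPB7 to 0.073 without ZH17 replicate 1, OsEXPB4 to 0.020 without ZH17 replicate 2 and OsEXPB2 to -0.040 without ZH17 replicate 3. Their ranges over the fits without a library were -0.16 to 0.057, -0.39 to 0.073, -0.093 to 0.020 and -0.040 to 0.14 for the 4 genes in that order. The number of loci past the thresholds over all loci, 681, was 321 with the replicate block, 1371 without the criterion on fold change and 327 to 967 without a library (358, 420 and 327 without OEZ replicates 1, 2 and 3 in turn, and 696, 367 and 967 without ZH17 replicates 1, 2 and 3 in turn). The alpha-expansin loci past the thresholds, 2, were 1 with a pseudocount of 1, with the filter at 5 FPKM (which left out LOC_Os03g21820), with median-ratio scaling and with the replicate block. They were 1 to 2 without a library, keeping 2 only without ZH17 replicate 1. Without the criterion on fold change they were 3, with LOC_Os04g15840 added (log2 fold change 0.52, limma adjusted p = 0.014). The other beta-expansin loci past both thresholds were 0 to 1 without a library, the 1 being LOC_Os04g46650 without OEZ replicate 2. The summed level of the 6 genes, at a log2 ratio of -0.05, moved between -0.13 and 0.00 without a library. Deviations of same-numbered libraries correlated at -0.06 to 0.03, each below the highest correlation with another number, which was 0.03 to 0.04. All of these are near 0, and deviations centred within 3 libraries constrain each other. They therefore cannot show whether the replicate numbers pair the libraries.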
